A study of Saccharum hybrid cultivar with 12 samples.

Results

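The stem transcriptome of the moderate-sugar clone MS was compared with that of the low-sugar clone LS, both sprayed with water. The comparison rests on 4 of the 12 libraries of the series, MS_CK replicates 1 and 2 and LS_CK replicates 1 and 2, which were chosen by their labels alone. MS is YT71-210, for which the labels give a sucrose content of 12.6%, and LS is GT86-887, with 6.0%. Both are non-commercial genotypes of hybrid sugarcane, propagated as cuttings, so that each sugar class was represented by 1 clone. CK stands for a foliar spray of water. The same clones sprayed with 400 mg/L of ethylene solution made from ethephon, which the plant breaks down to ethylene, gave the 4 MS_T and LS_T libraries, which were used here as a separate measurement of the same pair of clones. The remaining libraries came from HS, the high-sugar variety ROC22 with 15.0% sucrose. Plants of all groups were 8 months old, and developing stalk tissue 20 cm above the node of a young expanded leaf was taken 7 days after the spray.

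Sucrose made in the leaf is carried in the phloem to the stalk, where it is stored in the vacuoles of parenchyma cells or broken down for growth. Invertases cleave it into glucose and fructose in the cytosol, the vacuole or the cell wall, sucrose synthase cleaves it reversibly, and sucrose phosphate synthase followed by sucrose phosphate phosphatase makes it again. Sugarcane hybrids are highly polyploid, and each gene is carried in many copies that differ between clones.

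The measurement was an expected count, the estimated number of sequenced fragments of a unigene, which is an assembled transcript of a joint assembly without a reference genome. Totals were 20453600 and 21338200 counts in the MS_CK libraries and 22176400 and 22847100 in the LS_CK libraries, within the range of 19765600 to 28747100 over all 12. At least 1 count was found for 86019 and 87733 unigenes in MS_CK and for 97524 and 97820 in LS_CK. The 2 replicates differed beyond sampling noise (chi-square over degrees of freedom 13.2 in MS_CK and 6.67 in LS_CK) and were kept as separate samples. The labels call them biological replicates without naming the plants or plots. Levels are given as CPM, counts scaled to a common library size with TMM factors. A unigene was called different when the p-value of edgeR's quasi-likelihood test, adjusted by Benjamini-Hochberg over all tested unigenes, was under 0.005 and the fold change over 2. Log2 fold changes are MS over LS. All 12 libraries shared 1 estimate of the spread, since an exact permutation test of 2 libraries against 2 cannot go below p = 0.333. The tables hold unigene names without gene names and the paper names no marker of the stalk, so the labelled tissue was not checked against markers.

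Of 54433 unigenes tested, 7288 were called, 13.4% of those tested. MS_CK was higher for 2705 (4.97%) and lower for 4583 (8.42%). The log2 fold change had a median of -0.03 over all tested unigenes, and its median size without regard to sign was 0.59 for all unigenes and 3.47 for those called. The differences were often large. Among the unigenes higher in MS_CK, 805 differed by 2 to 4 times, 821 by 4 to 16 times, 309 by 16 to 64 times and 770 by more. Among those lower in MS_CK the same classes held 1036, 1336, 541 and 1670 unigenes, so that 48.2% of the unigenes lower in MS_CK and 39.9% of those higher differed by over 16 times. In bulk tissue fewer cells of a type and less RNA per cell cannot be told apart. With 1 library left out the test called fewer unigenes, 3302 and 2988 when MS_CK replicate 1 or MS_CK replicate 2 was dropped, and 3372 and 3448 when LS_CK replicate 1 or LS_CK replicate 2 was, and the unigenes lower in MS_CK remained the larger part each time.

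**Figure D1:**
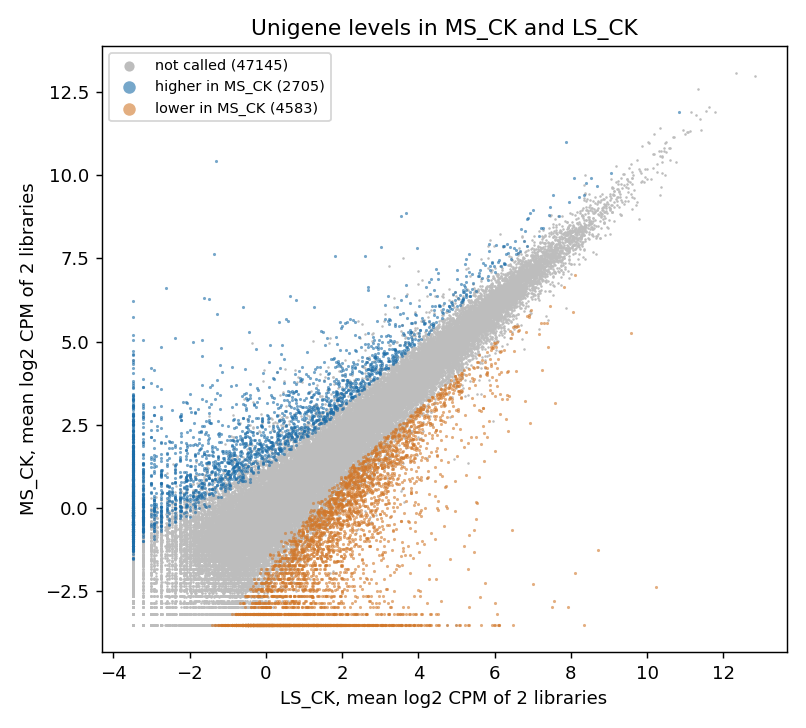
Mean log2 CPM of each tested unigene over the 2 MS_CK libraries (vertical axis) and the 2 LS_CK libraries (horizontal axis), 1 point per unigene. Blue points are the 2705 unigenes called higher in MS_CK, orange points the 4583 called lower, and grey points the others. The rows of points along both axes are unigenes at or near 0 counts in 1 of the clones.

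The excess of unigenes lower in MS_CK came from those of low and middle abundance. Of the unigenes with a mean under 1 CPM over the 12 libraries, 963 were higher and 1959 lower in MS_CK, and of those between 1 and 10 CPM, 1263 were higher and 2232 lower. Between 10 and 100 CPM the 2 directions were close, with 418 higher and 379 lower. Above 100 CPM, 61 were higher and 13 lower, so that 82.4% of the calls were higher in MS_CK. Calls were also rarer among abundant unigenes, 3.91% of those above 100 CPM against 17.1% of those between 1 and 10 CPM. With the classes drawn from the mean of the 8 other libraries, those above 100 CPM held 62 higher and 12 lower. The scaling of the libraries bore on this split. With library totals in place of TMM factors, the median log2 fold change of all unigenes was -0.18, the class above 100 CPM had 43 higher and 22 lower (66.2% higher), and the class between 10 and 100 CPM turned to 330 higher and 498 lower (39.9% higher, against 52.4% with TMM factors).

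**Figure D2:**
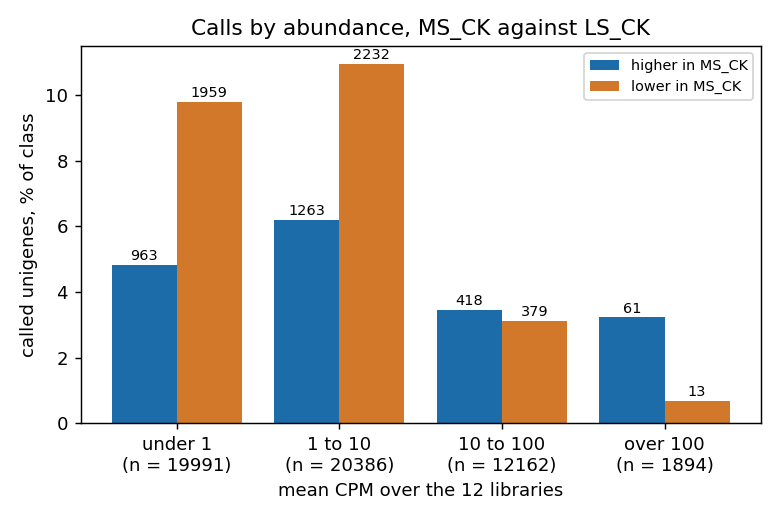
Share of tested unigenes called higher (blue) or lower (orange) in MS_CK than in LS_CK, in percent, by mean CPM over the 12 libraries; the numbers above the bars count unigenes. In the class over 100 CPM 61 were higher and 13 lower in MS_CK, and in the class of 1 to 10 CPM 1263 were higher and 2232 lower.

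The called unigenes took a small part of the counts. Those higher in MS_CK held 5.23% and 5.15% of the counts in the MS_CK libraries, against 1.75% and 1.68% in the LS_CK libraries. Those lower in MS_CK held 0.733% and 0.633% in MS_CK, against 3.82% and 3.76% in LS_CK. These shares describe the unigenes that were called and are no further test. In the HS_CK libraries, which the call did not compare, the shares were 4.03% and 3.58% for the unigenes higher in MS_CK and 1.89% and 1.82% for those lower.

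Part of the difference lay in unigenes counted in 1 clone only. With at least 10 counts in both libraries of a clone and 0 in both of the other, 643 unigenes were found in MS_CK only and 1919 in LS_CK only. Of these, 606 and 1475 were called, while over all tested unigenes 4.97% were called higher in MS_CK and 8.42% lower. Being chosen by the counts of the same 4 libraries, they were bound to be called often, so this is no further test. A count of 0 allows up to 3 counts in a library. In the separate ethephon libraries presence recurred more often for the unigenes found in MS_CK only than for those found in LS_CK only. Of the 643 unigenes found in MS_CK only, 581 had at least 10 counts in both MS_T libraries and 538 had 0 in both LS_T libraries. Of the 1919 found in LS_CK only, 1219 had at least 10 counts in both LS_T libraries and 1574 had 0 in both MS_T libraries. Both conditions held for 487 of the 643 and for 983 of the 1919. The cause of this inequality was not tested. HS_CK held at least 1 count of 317 of the 643 and of 762 of the 1919. The LS_CK libraries were the deeper ones, as given above, and the part of depth in the difference between 643 and 1919 was not tested. Calls on counts thinned to the smallest library kept the direction of the excess, with 2582 higher and 4415 lower.

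Trinity names a unigene by its component, a group of related sequences that can hold allelic or homeologous copies of a gene, and by a number within it. The 163054 unigenes formed 128792 components. When counts were summed per component and tested in the same way, 4711 of 41208 components were called (11.4%), 1715 higher in MS_CK (4.16%) and 2996 lower (7.27%). The median size of the log2 fold change among those called was 2.70. Summing therefore kept the excess of lower calls. Leaving out 1 library lowered the number of components called to 1988 and 1754 when MS_CK replicate 1 or MS_CK replicate 2 was dropped, and to 1954 and 2002 when LS_CK replicate 1 or LS_CK replicate 2 was.

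Many called unigenes had sisters in their component that did not follow them. Of the 7288 called unigenes, the sum of the component was called in the same direction for 5093, in the opposite direction for 69 and in neither for 2126. Components with a single tested unigene numbered 30816, and those with more numbered 10034 and held 3628 called unigenes. For 1767 of these 3628 (48.7%) the sum was called the same way, and for 1792 (49.4%) it was not called. In 204 components some unigenes were called higher and others lower in MS_CK, and the sum of 140 of them was not called. A sister with at least 10 counts in both libraries of the clone that lacked the unigene was found for 250 (38.9%) of the 643 unigenes in MS_CK only and for 627 (32.7%) of the 1919 in LS_CK only.

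The text of the paper gives an enzyme or protein class to 77 unigenes, all of which were tested. Many were picked by the study as differing among these same libraries, and others, such as sucrose phosphate synthases, were taken by function. The number called among the 77 and their direction are therefore no independent evidence. Of the 77, 8 were higher in MS_CK, 22 were lower and 47 were not called, which makes 39.0% called against 13.4% of all tested unigenes. Their median log2 fold change was -0.45, against -0.03 over all tested unigenes. Among the 29 unigenes of carbohydrate metabolism and transport, 2 were higher in MS_CK, 8 lower and 19 not called. The share called was 14.3% for sucrose cleavage, 20% for sucrose synthesis and sucrose synthase, 33.3% for starch synthesis and 57.1% for the cell wall. For hexose phosphate and phloem loading it was 66.7%, for ATPases 25%, for transcription factors 39.3% and for methyl- and acetyltransferases 47.6%. Each is to be read against the 13.4%.

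Of the 7 unigenes of sucrose cleavage, 1 was lower in MS_CK, 0 were higher and 6 were not called, with a median log2 fold change of -0.07. The share called, 14.3%, was near the 13.4% of all tested unigenes. The invertase unigene c91663_g1, annotated as sucrose alpha-glucosidase, had 0 and 1 counts in the MS_CK libraries against 530 and 567 in the LS_CK libraries. It was nearly absent from MS, and the clones were far apart. The ratio of LS_CK to MS_CK was 922, with an exact 95% counting interval of 165 to 36400, and the log2 fold change was -9.55 ± 0.46 (SE, edgeR adjusted p = 1e-06). HS_CK had 101 and 141 CPM of this unigene, above the 22.1 and 23.0 CPM of LS_CK. A second invertase, c93760_g1, had 50.1 and 52.2 CPM in MS_CK against 84.8 and 76.9 CPM in LS_CK, again without overlap, but its log2 fold change of -0.66 was under the fold limit (edgeR adjusted p = 0.0021). The invertase c84505_g3 was near the limit of detection, with 0 and 1 counts in MS_CK against 5 and 4 in LS_CK. Summed over the 7 unigenes of its component, it was called lower in MS_CK, with a log2 fold change of -2.45 ± 0.36 (SE).

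The cell wall invertases leaned the other way. CWINV3 c102611_g1 had 24.8 and 22.5 CPM in MS_CK against 12.9 and 11.7 CPM in LS_CK. Its sister c102611_g2 had 2.92 and 3.80 CPM in MS_CK against 1.80 and 1.10 CPM in LS_CK. For both, the MS_CK libraries lay above the LS_CK libraries, while neither passed the thresholds. The log2 fold change was 0.94 for c102611_g1, under the fold limit at an edgeR adjusted p of 0.0018, and 1.21 for c102611_g2 at 0.031. Cell wall invertase cleaves sucrose outside the cell membrane. The cytosolic invertase CINV2 c93030_g1 had 35.0 and 41.5 CPM in MS_CK against 40.1 and 40.0 CPM in LS_CK, and these ranges overlapped. The remaining invertase, c99737_g1, had 8.71 and 7.26 CPM in MS_CK against 6.60 and 4.72 CPM in LS_CK (log2 fold change 0.50, edgeR adjusted p = 0.10). Its FPKM values were not higher in MS_CK, with 3.23 and 3.10 against 3.23 and 3.77 in LS_CK.

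Of the 5 unigenes of sucrose synthesis and sucrose synthase, 1 was lower in MS_CK and 4 were not called, with a median log2 fold change of 0.11. The called one was SPP2 c91176_g1, a sucrose phosphate phosphatase, the enzyme of the last step of sucrose synthesis. It had 4.72 and 3.46 CPM in MS_CK against 11.4 and 11.0 CPM in LS_CK (log2 fold change -1.46 ± 0.23 SE, edgeR adjusted p = 8.4e-04). The MS_CK libraries were both below the LS_CK libraries. Its call was lost without MS_CK replicate 2, without LS_CK replicate 1 or without LS_CK replicate 2, when the adjusted p reached 0.013, and with limma on log2(FPKM + 1) and log2(FPKM + 0.1) (0.0068 and 0.0073). The preceding enzyme, sucrose phosphate synthase, was measured by SPS1F c72504_g1, with 20.3 and 23.1 CPM in MS_CK against 21.1 and 19.1 CPM in LS_CK, and by SPS1F c72030_g1, with 41.1 and 48.6 CPM in MS_CK against 41.3 and 39.4 CPM in LS_CK. Both pairs of groups overlapped.

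Sucrose synthase was the most abundant of the carbohydrate unigenes per length, with SUS4 c96004_g2 at a mean of 88.1 FPKM over the 4 libraries. SUS4 had 363 and 246 CPM in MS_CK against 416 and 416 CPM in LS_CK, lower in both MS_CK libraries, but the spread within MS_CK was wide and the difference did not pass (log2 fold change -0.45 ± 0.21 SE, edgeR adjusted p = 0.13). SUS3 c83314_g1 had 48.6 and 56.2 CPM in MS_CK against 37.5 and 54.1 CPM in LS_CK, with overlapping ranges and a log2 fold change of 0.19.

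Of the 3 unigenes of starch synthesis, 1 was higher in MS_CK and 2 were not called, with a median log2 fold change of -0.11. Starch synthase c101377_g1, which extends the glucan chain, had 10.2 and 8.74 CPM in MS_CK against 2.05 and 1.14 CPM in LS_CK. The groups were well apart, with a log2 fold change of 2.57 ± 0.26 (SE, edgeR adjusted p = 5.6e-05), and its call held in each of the alternatives tried. The other starch synthase, c103501_g1, had 14.0 and 8.54 CPM in MS_CK against 12.7 and 11.6 CPM in LS_CK, an overlap. The branching enzyme c42182_g1, which adds side chains to the glucan, had 0.389 and 1.09 CPM in MS_CK against 3.26 and 2.44 CPM in LS_CK, without overlap but short of the threshold (log2 fold change -1.94, edgeR adjusted p = 0.032).

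Of the 7 cell wall unigenes, 1 was higher in MS_CK, 3 were lower and 3 were not called, with a median log2 fold change of -0.69. Those lower in MS_CK are annotated in the paper as synthases of wall polysaccharides. The paper lists these 3, along with c86791_g4 and c42182_g1, as strongly expressed in HS and MS. In the libraries compared here all of them had lower levels in MS_CK than in LS_CK. Cellulose synthase c101169_g3 had 3.02 and 2.57 CPM in MS_CK against 9.40 and 15.5 CPM in LS_CK (log2 fold change -2.16 ± 0.28 SE, edgeR adjusted p = 2.8e-04). The paper also places this unigene among transcription factors, which makes its class uncertain. There it gives the unigene as lower in HS and MS than in LS, the direction found here. The call on c101169_g3 was lost without MS_CK replicate 2 and with limma on log2(FPKM + 0.1) (adjusted p = 0.0063). The 1,3-beta-D-glucan synthase c86041_g2, an enzyme of callose synthesis, had 0 and 0 counts in MS_CK against 42 and 51 in LS_CK, at least 26.1-fold lower in MS_CK with the floor of 3 counts taken over the group. Its component of 5 unigenes was called lower too, by a smaller log2 fold change of -1.51 ± 0.29 (SE). A further 1,3-beta-D-glucan synthase, c105310_g2, had 0.633 and 0.593 CPM in MS_CK against 3.63 and 3.94 CPM in LS_CK (log2 fold change -2.62 ± 0.28 SE). Here the component sum was not called, with a log2 fold change of -0.36, and the call on the unigene was lost with limma on FPKM.

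The cell wall unigene higher in MS_CK was polygalacturonase c87273_g1, an enzyme that cuts pectin, with 16 and 19 counts in MS_CK against 0 and 1 in LS_CK. The ratio of MS_CK to LS_CK was 41.6, with an exact 95% counting interval of 7.00 to 1690, and its component was also called higher (log2 fold change 2.71 ± 0.44 SE). The call on the unigene was lost with limma on log2(FPKM + 1), where the log2 fold change was 0.95. Pectinesterases remove methyl groups from pectin. Their 3 unigenes, c71803_g1, c90370_g1 and c83266_g1, had log2 fold changes of -0.69, -0.65 and -0.48, and none was called by edgeR (adjusted p 0.28, 0.49 and 0.055).

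Of the 3 unigenes of hexose phosphate metabolism and phloem loading, 2 were lower in MS_CK and 1 was not called. The phosphotransferase c95985_g1 had 3.26 and 2.07 CPM in MS_CK against 14.8 and 13.2 CPM in LS_CK (log2 fold change -2.39 ± 0.23 SE, edgeR adjusted p = 3.9e-05). The phloem sucrose loading unigene c86791_g4 had 0.730 and 0.543 CPM in MS_CK against 2.80 and 2.76 CPM in LS_CK (log2 fold change -2.12 ± 0.40 SE, edgeR adjusted p = 0.0026). Both pairs of groups were apart. The call on c86791_g4 was lost without MS_CK replicate 1, MS_CK replicate 2, LS_CK replicate 1 or LS_CK replicate 2, with an adjusted p of 0.014 to 0.031, and with limma on log2(FPKM + 1) and log2(FPKM + 0.1) (0.039 and 0.12). A glycolytic enzyme, 6-phosphofructokinase c95560_g1, had 3 and 0 counts in MS_CK against 8 and 18 in LS_CK and was not called (edgeR adjusted p = 0.024). Its component sum had a log2 fold change of -0.14.

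Of the 4 unigenes that the paper lists as ATPases, 1 was lower in MS_CK and 3 were not called. ACA2 c87964_g1, named after a calcium pump of Arabidopsis, had 3.60 and 3.75 CPM in MS_CK against 9.19 and 8.50 CPM in LS_CK (log2 fold change -1.26 ± 0.22 SE, edgeR adjusted p = 0.0016). The groups did not overlap, yet the call was lost without MS_CK replicate 1, MS_CK replicate 2, LS_CK replicate 1 or LS_CK replicate 2, with an adjusted p of 0.0075 to 0.016. The ATPase c79387_g1 had 4.14 and 3.26 CPM in MS_CK against 0.919 and 1.67 CPM in LS_CK, higher in both MS_CK libraries but short of the threshold (log2 fold change 1.51, edgeR adjusted p = 0.015). Its FPKM values overlapped, with 5.20 and 7.95 in MS_CK against 2.92 and 8.97 in LS_CK. AATP1 c87456_g3 and ATPase2 c101111_g2 had overlapping ranges or single counts and log2 fold changes of -1.97 and 1.40.

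**Figure D3:**
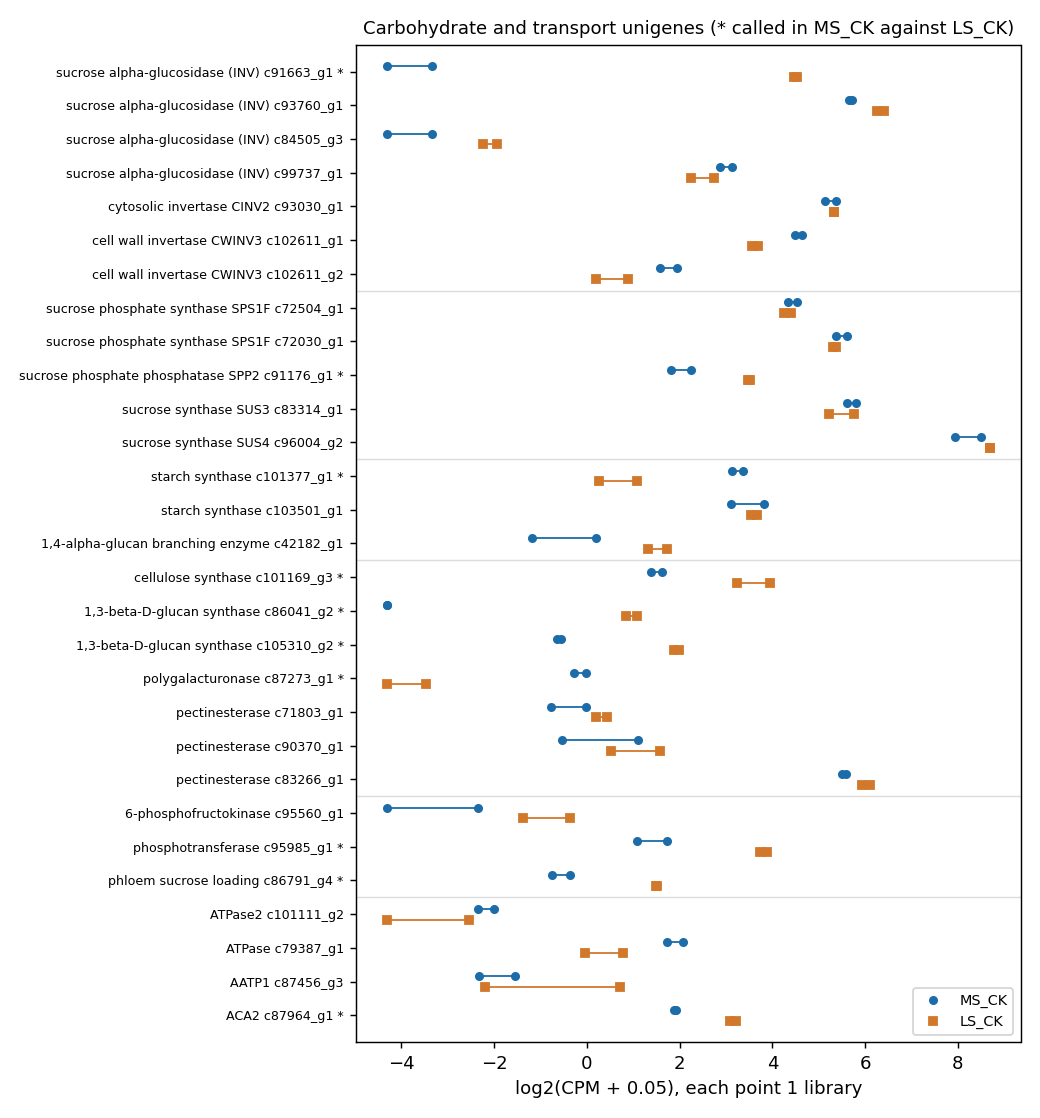
Level of each of the 29 carbohydrate and transport unigenes in every library as log2(CPM + 0.05); blue circles are the 2 MS_CK libraries, orange squares the 2 LS_CK libraries, and lines join replicates. Stars mark the 10 unigenes called, 2 higher and 8 lower in MS_CK. The invertase c91663_g1 stands at the left edge in MS_CK (0 and 1 counts) and far to the right in LS_CK (530 and 567 counts), while the SPS1F unigenes and CINV2 lie close together in both clones.

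Transcription factors switch sets of genes on or off, and the paper sorts those it names by their pattern over the same 12 libraries. The first set holds factors that the paper gives as highest in HS. The second set holds those given as higher in both HS and MS than in LS. The third set joins the separate lists of those given as lower. Over the 28 factors, 4 were higher in MS_CK, 7 lower and 17 not called. In the second set all 3 were higher in MS_CK, the direction by which the paper had grouped them. The ethylene responsive factor c81582_g1, of the family that carries ethylene signals to target genes, had 8.52 and 8.99 CPM in MS_CK against 3.72 and 4.07 CPM in LS_CK (log2 fold change 1.17 ± 0.22 SE, edgeR adjusted p = 0.0026). Its groups were apart, but its call was lost with library totals, with limma on FPKM and without MS_CK replicate 1, MS_CK replicate 2, LS_CK replicate 1 or LS_CK replicate 2 (adjusted p 0.013 to 0.027). The factor c77130_g1 was almost confined to MS among these 4 libraries, with 9.54 and 8.35 CPM in MS_CK against 0.0418 and 0.285 CPM in LS_CK (log2 fold change 5.72 ± 0.43 SE, edgeR adjusted p = 1e-05), and its call held in each alternative tried. The factor c93409_g3 had 3.99 and 3.70 CPM in MS_CK against 0.877 and 1.18 CPM in LS_CK, and its call was lost without MS_CK replicate 1, MS_CK replicate 2, LS_CK replicate 1 or LS_CK replicate 2 (adjusted p 0.0073 to 0.017), and with both settings of limma on FPKM (0.0057 and 0.0059).

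In the first set of 10 factors, 1 was higher in MS_CK, 1 lower and 8 were not called. The factor c99023_g1 was higher, with 9.88 and 14.0 CPM in MS_CK against 4.97 and 4.72 CPM in LS_CK, and c93121_g3 was lower, with 2 and 2 counts in MS_CK against 27 and 10 in LS_CK. Neither group pair overlapped. Each of these calls was lost with limma on log2(FPKM + 1) and with some libraries left out. For c99023_g1 these were MS_CK replicate 2, LS_CK replicate 1 and LS_CK replicate 2, with an adjusted p of up to 0.024. For c93121_g3 they were MS_CK replicate 1, MS_CK replicate 2 and LS_CK replicate 1, with an adjusted p of up to 0.050. The heat shock factor c101031_g1 had 47.0 and 61.1 CPM in MS_CK against 26.5 and 57.2 CPM in LS_CK, an overlap. The factors of this set that were not called ranged in log2 fold change from -1.06 in c67755_g1 to 2.54 in c78352_g3, which had 2 and 4 counts in MS_CK against 1 and 0 in LS_CK.

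In the third set of 15 factors, 6 were lower in MS_CK, 0 were higher and 9 were not called, with a median log2 fold change of -1.08. The paper lists the called ones apart, as also down-regulated by ethylene. The uncalled ones are those it gives only as opposite in trend to the second set. The split between called and not called thus followed those lists. Among the uncalled, c103585_g1, c98618_g1 and c104225_g1 had log2 fold changes above 0 (0.14, 0.44 and 0.08), and the others lay below 0. The lowest of the 15 was c62764_g1, with 2 and 0 counts in MS_CK against 52 and 80 in LS_CK. The ratio of LS_CK to MS_CK was 55.5, with an exact 95% counting interval of 15.1 to 463. The factor c83361_g1 had 0.536 and 0.346 CPM in MS_CK against 3.09 and 4.31 CPM in LS_CK (log2 fold change -3.05), and c105527_g1 had 1.80 and 1.58 CPM in MS_CK against 6.31 and 7.32 CPM in LS_CK (log2 fold change -2.01). In both the sisters did not follow, and the component sums, with log2 fold changes of -0.57 and -0.39, were not called. The call on c83361_g1 was lost without MS_CK replicate 2 (adjusted p = 0.0065) and with limma on log2(FPKM + 1).

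The remaining factors of the third set lower in MS_CK, besides c101169_g3 given above, were c101112_g1 and c93996_g1. For c101112_g1 there were 11.1 and 11.0 CPM in MS_CK against 30.4 and 25.6 CPM in LS_CK, and for c93996_g1 there were 4.09 and 4.30 CPM in MS_CK against 8.73 and 9.07 CPM in LS_CK. All 4 LS_CK values lay above the MS_CK values of the same unigene. The call on c101112_g1 was lost without MS_CK replicate 1, MS_CK replicate 2 or LS_CK replicate 1 (adjusted p up to 0.010). That on c93996_g1 was lost without MS_CK replicate 1, MS_CK replicate 2, LS_CK replicate 1 or LS_CK replicate 2 (adjusted p 0.019 to 0.029), and with both settings of limma on FPKM (0.0075 and 0.0085). The WRKY factor c97708_g1, of a plant family tied to stress and defence, had 37.0 and 36.5 CPM in MS_CK against 41.6 and 42.4 CPM in LS_CK and was not called (log2 fold change -0.19). The factors of this set that were not called had log2 fold changes between -1.18 in c94993_g1 and 0.44 in c98618_g1. For c98618_g1 the FPKM values went the other way, with 4.33 and 3.17 in MS_CK against 7.37 and 6.75 in LS_CK. They also did for c83546_g1 (log2 fold change -0.53), with 3.57 and 2.09 FPKM in MS_CK against 1.89 and 0.94 in LS_CK.

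Methyltransferases add methyl groups to DNA, histones or other substrates, and the 17 unigenes that the paper lists in this class were likewise kept in its sets. The paper gives the first set as higher in HS, or in HS and MS, than in LS. It gives the second set as lowest in HS and the third set as highest in LS. In the first set of 5, 2 were higher in MS_CK and 3 were not called. For c83430_g5 there were 200 and 142 counts in MS_CK against 1 and 0 in LS_CK, a ratio of MS_CK to LS_CK of 407 with an exact 95% counting interval of 72.6 to 16100. Its component went the other way. Of its 5 tested unigenes 1 was higher and 3 were lower in MS_CK, with log2 fold changes from -11.78 to 8.32, and the summed counts were called lower (log2 fold change -3.88 ± 0.40 SE). The 3 not called, c94499_g2, c86342_g1 and c102490_g1, had log2 fold changes of 2.45, 0.69 and 0.78. The component sum of c86342_g1, over 7 unigenes, was called lower in MS_CK (log2 fold change -1.93 ± 0.32 SE). The sums of c94499_g2 and c102490_g1 were not called. For c89405_g1 there were 100 and 54 counts in MS_CK against 2 and 3 in LS_CK (log2 fold change 5.12 ± 0.56 SE, edgeR adjusted p = 1.0e-04).

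In the third set of 9 methyltransferases, 7 were lower in MS_CK, 0 were higher and 2 were not called, with a median log2 fold change of -1.96. The paper had grouped all 9 by that direction over the same libraries, so their shared direction is no independent result. The steepest was c99770_g1, with 0.341 and 0.346 CPM in MS_CK against 4.47 and 3.66 CPM in LS_CK (log2 fold change -3.54 ± 0.40 SE). The paper elsewhere describes c99770_g1 as a protein-glutamate methylesterase, so its class is uncertain. The most abundant of those called was c85603_g1, at a mean of 28.0 FPKM over the 4 libraries, with 11.3 and 5.48 CPM in MS_CK against 51.0 and 52.8 CPM in LS_CK (log2 fold change -2.63 ± 0.29 SE). Calls on these 2 held with each library left out. The other 5 called, c91981_g1, c81202_g1, c76393_g1, c68777_g2 and c104953_g2, had log2 fold changes between -2.32 and -1.28, and the component sum of each was called lower as well. Their calls depended on single libraries or on the test. The call on c104953_g2 was lost with any 1 of the 4 left out (adjusted p up to 0.031), those on c76393_g1 (up to 0.019) and c68777_g2 (up to 0.022) without MS_CK replicate 2, LS_CK replicate 1 or LS_CK replicate 2, that on c81202_g1 without MS_CK replicate 1 or LS_CK replicate 1 (up to 0.014) and that on c91981_g1 without MS_CK replicate 1 (0.0066). With limma on log2(FPKM + 1) those on c104953_g2 (0.0058) and c91981_g1 (log2 fold change -0.90, under the fold limit) were lost, and with limma on log2(FPKM + 0.1) that on c104953_g2 (0.0093).

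Not called in that set was c79589_g3, the most abundant of the methyltransferases at 169 FPKM. It had 54.5 and 13.6 CPM in MS_CK against 111 and 109 CPM in LS_CK, so the MS_CK replicates were far from each other while both stayed below LS_CK (log2 fold change -1.69 ± 0.47 SE, edgeR adjusted p = 0.019). The second set of 3 methyltransferases had log2 fold changes of 0.57, -0.12 and 0.02 for c102613_g1, c85289_g1 and c67261_g2, and none was called by edgeR, although c102613_g1 had an adjusted p of 0.021.

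Acetyltransferases transfer acetyl groups, in the histone class to the proteins that package DNA. Of 4 unigenes, 1 was lower in MS_CK and 3 were not called. The acetyltransferase c121832_g1 had 1 and 1 counts in MS_CK against 72 and 73 in LS_CK, a ratio of LS_CK to MS_CK of 60.9 with an exact 95% counting interval of 16.6 to 508. The most abundant of the 4, c86464_g1 at 35.7 FPKM, had 7.06 and 6.47 CPM in MS_CK against 9.86 and 9.76 CPM in LS_CK, lower in both MS_CK libraries and short of the threshold (log2 fold change -0.54, edgeR adjusted p = 0.029).

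**Figure D4:**
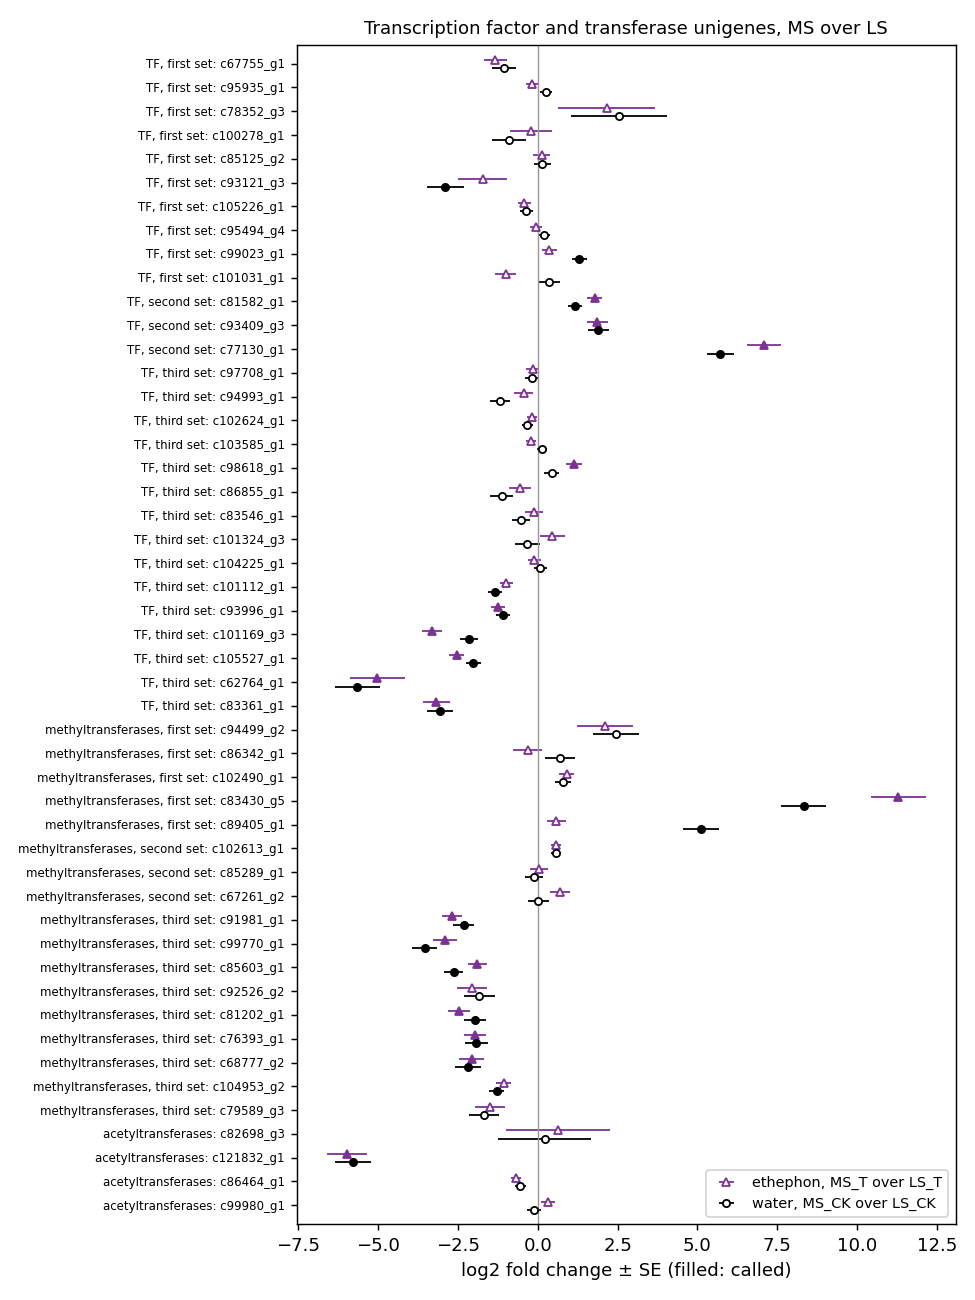
Log2 fold change of MS over LS, with its SE, for each transcription factor (TF), methyltransferase and acetyltransferase unigene; purple triangles are the ethephon libraries (MS_T over LS_T), black circles the water libraries (MS_CK over LS_CK), and filled symbols were called. Values right of 0 are higher in MS. The 3 factors of the second set lie right of 0 in both treatments, and the 9 methyltransferases of the third set lie left of 0 in both. The paper had grouped both sets by these directions over the same libraries.

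Some of the strongest differences fell on unigenes to which the text of the paper gives no class. Annotation tables were not used, so these unigenes may still carry an annotation. The most abundant unigene called higher in MS_CK, c92753_g2, had 4050 and 3550 CPM in MS_CK against 1750 and 1880 CPM in LS_CK (log2 fold change 1.06 ± 0.18 SE, edgeR adjusted p = 0.0012). This call was fragile, being lost with library totals, with limma on FPKM and without MS_CK replicate 1, MS_CK replicate 2, LS_CK replicate 1 or LS_CK replicate 2 (adjusted p 0.0050 to 0.018). The largest fold higher in MS_CK among unigenes counted in all 4 libraries was that of c62835_g1, with 1260 and 1500 CPM in MS_CK against 0.877 and 0.0813 CPM in LS_CK, and with 3700 and 3350 CPM in HS_CK. The most abundant unigene called lower, c68323_g3, showed the reverse, with 0.341 and 0 CPM in MS_CK against 1210 and 1200 CPM in LS_CK, and 0.0873 and 0 CPM in HS_CK. Among unigenes counted in all 4 libraries the largest fold lower was that of c84446_g1, with 0.146 and 0.198 CPM in MS_CK against 269 and 282 CPM in LS_CK, and 456 and 415 CPM in HS_CK. The last 3 were each near 0 in 1 clone and among abundant transcripts in the other, and HS resembled MS for c62835_g1 and c68323_g3 and LS for c84446_g1.

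The MS_T and LS_T libraries measured the same pair of clones after ethephon and share no library with the water comparison. Both comparisons were nevertheless made in 1 model, with the spread of each unigene estimated from all 12 libraries. The calls in water and after ethephon were therefore not fully independent, and the effect on the share called alike was not tested. In MS_T against LS_T 8123 unigenes were called (14.9%), 3014 higher in MS_T (5.54%) and 5109 lower (9.39%). Of the 2705 unigenes higher in MS_CK, 2573 (95.1%) had the same direction after ethephon and 1926 (71.2%) were called the same way, with a median log2 fold change of 2.78 after ethephon against 3.06 in water. Of the 4583 unigenes lower in MS_CK, 4536 (99.0%) had the same direction and 3074 (67.1%) were called the same way, with medians of -3.06 after ethephon and -3.77 in water. The 5000 unigenes called alike in both were 68.6% of those called in water and 61.6% of those called after ethephon. Of the 30 unigenes with a class in the text of the paper that were called in water, 25 had the same call after ethephon. The number called after ethephon was 4413 and 3468 when MS_T replicate 1 or MS_T replicate 2 was dropped, and 4674 and 5344 when LS_T replicate 1 or LS_T replicate 2 was.

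**Figure D5:**
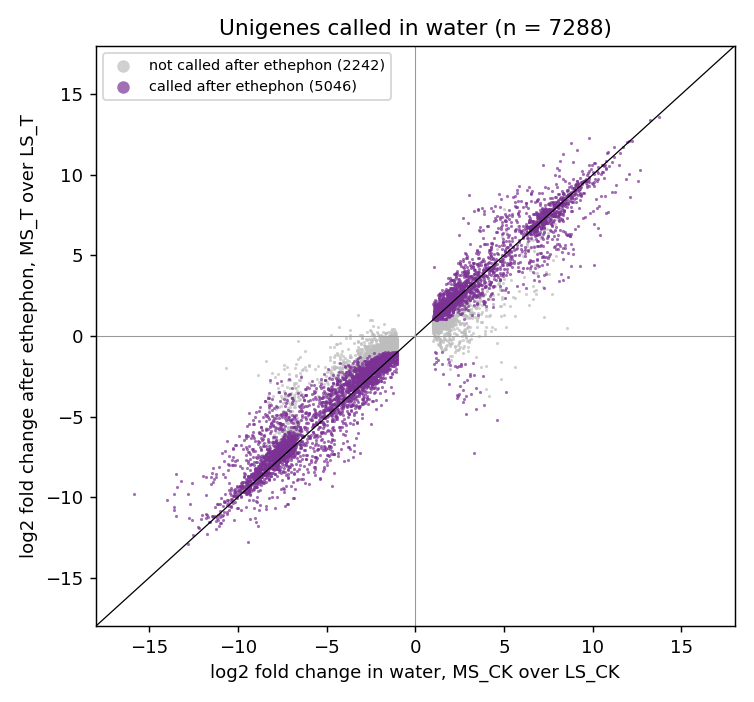
Log2 fold change after ethephon (MS_T over LS_T, vertical axis) against that in water (MS_CK over LS_CK, horizontal axis) for the 7288 unigenes called in water; purple points were also called after ethephon, grey points were not, and the diagonal marks equal values. Most points lie in the quadrants of equal sign, and the purple points at the lower right are the 46 unigenes called higher in MS_CK and lower in MS_T.

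Opposite calls ran in 1 direction. Of the unigenes higher in MS_CK, 46 were called lower in MS_T than in LS_T, and of those lower in MS_CK, 0 were called higher. The summed level of the 46 was 546 and 755 CPM in MS_CK against 137 and 165 CPM in LS_CK, and 266 and 187 CPM in MS_T against 1780 and 1160 CPM in LS_T. These 46 were chosen by their calls, so the sums are a description. Tested directly, the difference between the clones depended on treatment for 191 unigenes (0.351%), of which 187 (0.344% of those tested) had the lower log2 fold change after ethephon. The median log2 fold change of the 191 was -3.12 after ethephon and 1.26 in water. This number was unstable. It was 0 without MS_CK replicate 1, MS_CK replicate 2, MS_T replicate 1 or MS_T replicate 2, 1 without LS_CK replicate 1, 6 without LS_T replicate 1, 92 without LS_CK replicate 2 and 83 without LS_T replicate 2, by edgeR with 5212 to 9881 unigenes at an unadjusted p under 0.05, while DESeq2's Wald test on all libraries gave 1146.

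Among the unigenes with a class in the text of the paper, the test of the difference between treatments called ACA2 c87964_g1. It had 7.32 and 5.75 CPM in MS_T against 83.6 and 67.1 CPM in LS_T, a log2 fold change of -3.53 after ethephon against -1.26 in water, and the difference of -2.27 had an edgeR adjusted p of 0.0043. Both MS libraries lay below both LS libraries under each treatment. The methyltransferase c89405_g1 had 12.5 and 9.19 CPM in MS_T against 8.87 and 5.51 CPM in LS_T, a log2 fold change of 0.58 after ethephon against 5.12 in water, and its difference of -4.54 stood just outside the threshold (edgeR adjusted p = 0.0072). That difference was called in a model of the 8 MS and LS libraries (adjusted p = 0.003) and by DESeq2's Wald test (2.1e-07). The call on the ACA2 difference was not stable, with an adjusted p of 0.0069 with library totals and 0.0069 to 0.031 with any 1 MS or LS library left out.

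HS_CK was set beside both clones for the called unigenes as a description. Of the 2705 unigenes higher in MS_CK, the mean log2 CPM of HS_CK was nearer to that of MS_CK for 1441 (53.3%) and nearer to that of LS_CK for 1264. It lay between the clones for 1433, above both for 599 and below both for 673. Of the 4583 unigenes lower in MS_CK, HS_CK was nearer to MS_CK for 2864 (62.5%) and nearer to LS_CK for 1719, and it lay below both clones for 1633 and above both for 578. With 3 clones, sucrose content and any other difference between the clones cannot be told apart.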

How the data were processed

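The authors removed adapters, reads of quality under 30 and reads shorter than 50 bp, ran Trinity on what remained of all libraries, kept the longest transcript of each subcomponent as a unigene and aligned reads to the unigenes with RSEM (version not given in the sources used here). The authors deposited for each library an expected count, which carries no scaling between libraries, and an FPKM value, scaled by a length and by mapped fragments. That length was not the same in every library for some unigenes. For c79387_g1, 85 counts gave 5.20 FPKM in MS_CK replicate 1, and 41 counts gave 8.97 FPKM in LS_CK replicate 2. Counts and FPKM can therefore differ in direction. Technical replicates had been merged, 3 per sample in the methods and 2 in the labels. The FPKM values were used for comparing levels between unigenes and in limma.

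After rounding of the expected counts, the main test was run in edgeR 4.0.16 under R 4.3.3, and alternatives in DESeq2 1.42.0 and limma 3.58.1. Python 3.11.15 with matplotlib 3.10.9 drew the figures. The filter filterByExpr, with 10 as its minimum count and the 6 groups as given, chose the unigenes, and TMM factors (1.01 and 0.953 in MS_CK, 1.09 and 1.08 in LS_CK) scaled them. glmQLFit and glmQLFTest had 1 coefficient per group, 6 residual degrees of freedom and a biological coefficient of variation of 0.207. The SE is the size of the log2 fold change divided by the square root of F. Component counts were summed over unigenes whose names share the part before _g. Bounds for groups at 0 used 3 counts over the group; counting intervals cover counting error only.

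Named were all unigenes to which the text of the paper gives a class. From the called unigenes without a class there, the 2 most abundant (1 in each direction) and the 2 with the largest folds counted in all 4 libraries were added. The members and lists were chosen with earlier results of these data known. Sequences, annotation tables, sucrose and qRT-PCR values were not analysed here. Alternatives were other scalings, tests, filters, thresholds, model libraries, a replicate block, thinned counts and each library left out.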

Additional observations from a re-analysis of the deposited data

Results flagged for a closer look

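The difference between MS and LS depended on the treatment for 191 unigenes, by the test of the difference between the ethephon and the water contrast in edgeR's model. The log2 fold change of MS over LS was lower after ethephon for 187 of them, and 175 were called in MS_T against LS_T and 58 in MS_CK against LS_CK.

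The same test singled out ACA2 c87964_g1 among the unigenes with a class in the text of the paper. Its log2 fold change of MS over LS was -3.53 after ethephon and -1.26 in water, a difference of -2.27 (edgeR adjusted p = 0.0043), and both MS libraries lay below both LS libraries under each treatment.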

How the results depend on the processing

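The main numbers, 7288 unigenes called (2705 higher and 4583 lower in MS_CK) and 4711 components (1715 and 2996), stayed within 1.5 times under DESeq2's size factors, library totals, DESeq2's Wald test, the adjusted p limit of 0.005 alone, a model of the 4 water libraries alone and thinned counts, and those of unigenes under limma on FPKM; lower calls outnumbered higher ones in all of them. Without a filter on low counts 12715 unigenes were called (5408 higher, 7307 lower) and 8555 components (3647 and 4908). With the limit on adjusted p eased to 0.05 and no fold limit (the loose threshold) the numbers were 17088 unigenes (7302 and 9786) and 12484 components (5393 and 7091). With only unigenes counted in all 4 libraries, 4707 were called and 2836 were lower. With each library left out in turn, with the spread of the single remaining library taken from the other groups, 2988 to 3448 unigenes were called (1103 to 1408 higher, 1700 to 2329 lower) and 1754 to 2002 components (614 to 820 and 1021 to 1388).

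Replicate numbers showed no pairing of MS_CK with LS_CK, where the correlation of deviations between same-numbered libraries was 0.00253. Over the 15 pairs of groups it ran from -0.168 to 0.375, so a pairing elsewhere in the series was not excluded. With a replicate block 6984 unigenes (2595 and 4389) and 4434 components (1617 and 2817) were called, and 1 named call was lost, that on c93996_g1; the treatment difference of c89405_g1 was called with the block (adjusted p = 0.00099) and not without it (0.0072). Of the 34 named unigenes called, 15 kept their call in all alternatives, 17 with each library left out, and none reversed; library totals ended 2 calls, limma on log2(FPKM + 1) 13 and limma on log2(FPKM + 0.1) 9. Of the 47 not called, 14 passed at the loose threshold, 9 without the count filter, 3 by DESeq2's Wald test, 2 with the adjusted p limit of 0.005 alone, 2 (of 39 tested) with the 4 water libraries alone and 1 without MS_CK replicate 1.

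Alternatives for the ethephon libraries, for the treatment test and for the abundance classes were chosen after seeing the data. For MS_T against LS_T, 17785 unigenes were called at the loose threshold and 3468 to 5344 with a library left out. The 191 treatment-dependent unigenes became 1146 by DESeq2's Wald test, 1072 at the loose threshold, 576 in a model of the 8 MS and LS libraries, 248 with a replicate block and 0 to 92 with a library left out. The cause of these shifts was not tested. At these depths unigenes with few counts are limited by counting error.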
